A study of Homo sapiens with 2 samples.

Results

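Interferon-stimulated genes are the antiviral and regulatory genes that cells switch on after interferon binds its receptors. The set described here is a fixed list of 40 such genes, chosen by symbol. A listed gene was measured where the array annotation gives a probe set its symbol alone, and its brightest probe set, by the mean over both arrays, stood for it. On this rule 38 of the 40 genes were measured, among 18377 genes in all, and STAT2 and GBP1 were not analysed here. The sensor gene RIGI was found under that symbol.

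LP-1, a human cell line established from the malignant plasma cells of multiple myeloma, was profiled on 2 Affymetrix arrays that probe whole transcripts. In the HIF2A array the cells were stably infected with pRUF-IRES-GFP-HIF2A, which carries the full-length cDNA of human HIF-2α, the product of EPAS1, a transcription factor subunit that is degraded in the presence of oxygen. In the vector control array they carried pRUF-IRES-GFP without that cDNA. Both lines therefore hold the GFP vector, and neither an interferon treatment nor an oxygen level is named in the labels. The sources used here do not say whether each line is a clone or a pool. Each group has 1 array, so no test across samples can be had and no difference has a replicate check.

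Type I interferons bind a receptor of IFNAR1 and IFNAR2, whose kinases JAK1 and TYK2 activate STAT proteins. A STAT dimer joined by IRF9 then binds the interferon-stimulated response element, the ISRE, in promoters of its target genes, while interferon gamma acts mainly through STAT dimers on the gamma-activated site, the GAS. HIF-2α is known for activating genes of the response to low oxygen, and plasma cells carry interferon receptors.

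As a check of the labels, EPAS1 had a log2 signal of 9.05 in HIF2A cells against 3.70 in control cells. All 10 plasma cell markers examined lay above the background range in both arrays, with a median difference, HIF2A minus vector control, of -0.145. Of these 10, 2 were at least 2-fold lower in HIF2A cells, SLAMF7 at 4.24 against 6.63 in control cells and TNFRSF17, the BCMA gene, at 7.68 against 8.71, and the part of this in the differences of the interferon-stimulated genes was not tested. That range was set at the 95th percentile of 339 olfactory receptor genes, 3.58 in the HIF2A array and 3.58 in the vector control. It is a yardstick shared by probe sets of unlike affinity, so a signal within it does not show that a gene was silent. Median differences were 0.085 over 8 T and NK cell markers, 0.12 over 9 myeloid, 0.01 over 4 plasmacytoid dendritic cell, -0.065 over 8 stromal and 0.065 over 6 endothelial and erythroid markers, of which PECAM1 had 5.28 in HIF2A cells against 4.36 in control cells and the others were within 1.5-fold. In RNA of a whole culture, fewer cells expressing a gene and less RNA per cell cannot be told apart.

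The interferon-stimulated genes showed no common direction in HIF2A cells. None of the 38 measured genes differed 2-fold between the arrays, that is, 0 were higher and 0 lower by that much, where 0.441% of all genes were higher by 2-fold or more and 0.473% lower. At least 1.5-fold higher were 2 of them, SAMD9L and IRF1, against 3.81% of all genes, and at least 1.5-fold lower was 1, DTX3L, against 3.37%. The difference was positive for 16, negative for 21 and zero for OASL, with a median of -0.085 log2 units over the 38, against 0.00 over all genes. Dim genes had slightly negative medians, -0.03 below a mean signal of 3, -0.04 from 3 to 4 and -0.06 over the olfactory receptor genes. The 9 members below 3 had -0.08 and the 15 members from 3 to 4 had -0.11.

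Much of the list was dim in both lines. In 17 of the 38 genes both arrays lay within the olfactory receptor range, in 3 genes, USP18, MX1 and DTX3L, 1 array lay above it, and in 18 both did. A filter at 4.01, the median of all probe sets, on the brighter array left 16 members and 11469 genes. Of these 16, IRF1 reached it in the HIF2A array alone, and IFI27, OAS1 and DTX3L in the vector control alone, so these 4 entered through the array in which they were higher. The 16 had a median difference of 0.14, against 0.03 over the genes past the filter, and 9 were positive and 7 negative. The median of the list thus turns its sign with the filter and has no settled direction. Past the filter the shares of all genes were 0.706% higher and 0.732% lower by 2-fold or more, where 0 of the 16 members were higher and 0 lower. By 1.5-fold or more 5.67% were higher and 4.76% lower, where 2 of the 16 members were higher and 1 was lower.

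**Figure D1:**
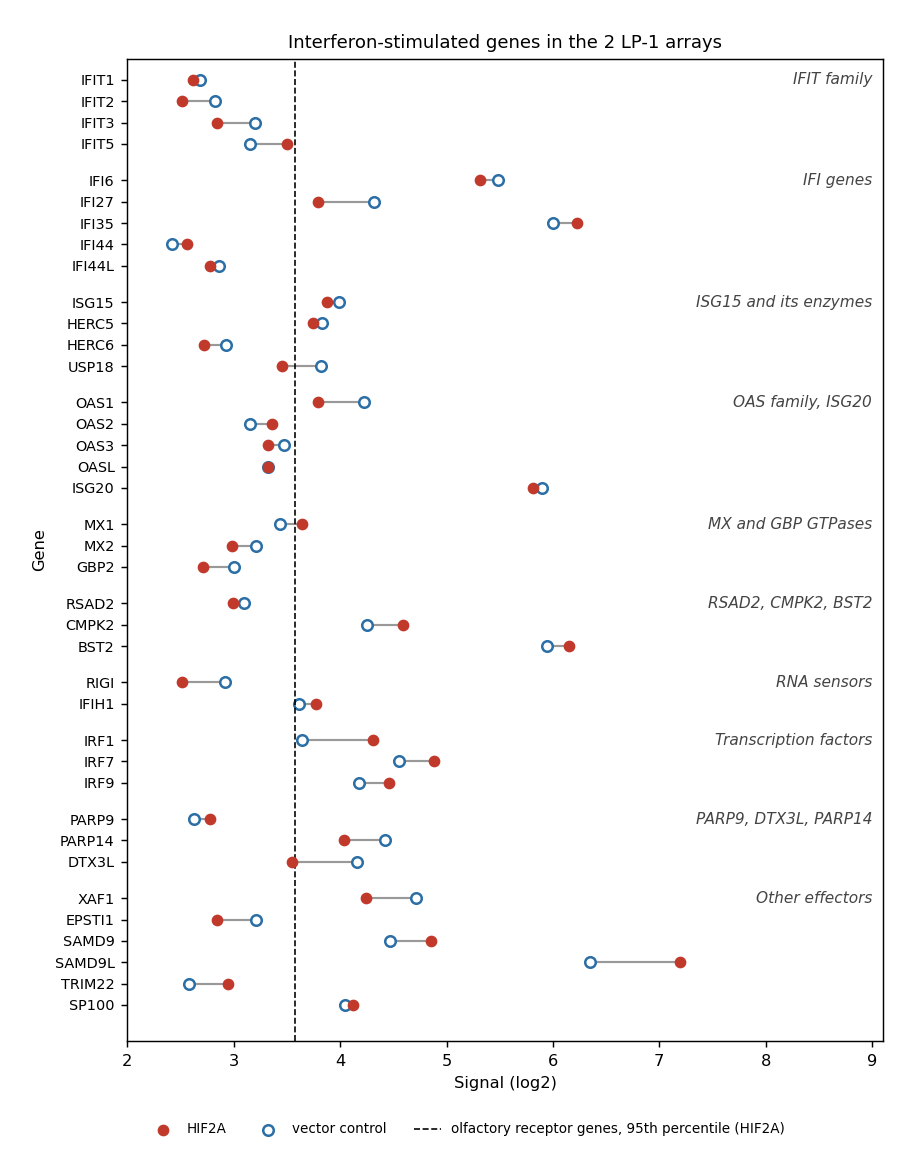
Log2 signal of the 38 measured interferon-stimulated genes, by role, in the HIF2A array (filled red) and the vector control array (open blue), 1 array each, so there are no error bars. The dashed line is the olfactory receptor 95th percentile of 3.58; all 4 IFIT genes lie left of it in both arrays, and SAMD9L, at 7.19 against 6.35, has the widest gap.

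The differences of members with a mean signal below 5 spread more widely than those of genes of like signal, a description that has no test here. The robust SD of the differences, the scaled median absolute deviation, was 0.42 over all 38 measured members, against 0.30 over all genes. Below a mean signal of 3 it was 0.33 for 9 members and 0.21 for 2299 genes. Among genes with a mean signal of 3 to 4 it was 0.39 for 15 members and 0.25 for 5095 genes, and from 4 to 5 it was 0.46 for 9 members and 0.31 for 3805 genes. From 5 to 6 it was 0.059 for 2 members and 0.36 for 2986 genes, and from 6 up 0.030 for 3 members and 0.34 for 4192 genes, too few members to describe a spread. Over the 16 members past the filter described above, some of which reached it in 1 array only, it was 0.41, against 0.34 over all genes past it. The 18 members above background in both arrays, a different selection, had 0.33. Within 1.2-fold lay 19 of the 38 members, against 62.9% of all genes. With 1 array a group, variation between cultures and an effect of HIF-2α cannot be told apart in these spreads.

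**Figure D2:**
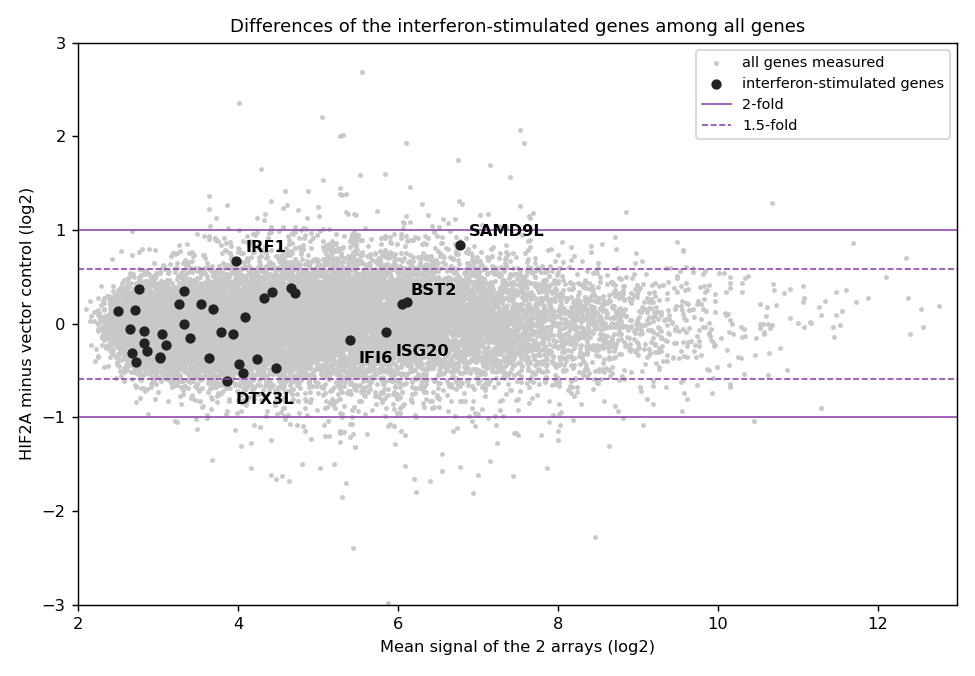
Difference in log2 signal, HIF2A minus vector control, against the mean log2 signal of the 2 arrays, for all genes (grey) and the 38 interferon-stimulated genes (black). The solid lines mark 2-fold and the dashed lines 1.5-fold; SAMD9L and IRF1 lie above the upper dashed line, DTX3L lies below the lower one, and 1 gene outside the plotted differences and 1 outside the plotted signals are not drawn.

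The promoters of 6 members are shown because their genes carry the comparison. IRF1, SAMD9L and DTX3L are the members past 1.5-fold, SAMD9 is the neighbour and paralog of SAMD9L, IFIT1 has a typical ISRE promoter with a gene at background, and BST2 has overlapping elements with a gene above background in both arrays. Each line runs 5′ to 3′ on the gene's strand, from 150 bases before the gene start to 10 bases from it, as taken from RefSeq on GRCh38.p14. Capitals mark matches to the ISRE, GAAANNGAAA on either strand, and to the GAS, TTCNNNGAA, whose letters read the same on both strands. Overlapping matches run together in one capital stretch.
IRF1 (chr5:132490764-132490923, minus strand): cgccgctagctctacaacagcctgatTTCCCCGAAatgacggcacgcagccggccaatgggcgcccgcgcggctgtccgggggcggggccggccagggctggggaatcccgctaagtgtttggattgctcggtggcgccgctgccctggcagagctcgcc
SAMD9L (chr7:93148376-93148535, minus strand): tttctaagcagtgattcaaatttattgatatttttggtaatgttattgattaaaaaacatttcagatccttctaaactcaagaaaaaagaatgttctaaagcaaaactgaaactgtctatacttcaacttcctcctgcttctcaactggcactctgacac
SAMD9 (chr7:93117970-93118129, minus strand): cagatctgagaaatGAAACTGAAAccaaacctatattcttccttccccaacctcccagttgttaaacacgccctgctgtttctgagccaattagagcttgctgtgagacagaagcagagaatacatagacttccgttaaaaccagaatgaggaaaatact
DTX3L (chr3:122564188-122564347, plus strand): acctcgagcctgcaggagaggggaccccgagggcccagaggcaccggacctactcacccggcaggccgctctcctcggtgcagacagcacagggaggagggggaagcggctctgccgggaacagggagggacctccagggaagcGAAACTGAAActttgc
IFIT1 (chr10:89392473-89392632, plus strand): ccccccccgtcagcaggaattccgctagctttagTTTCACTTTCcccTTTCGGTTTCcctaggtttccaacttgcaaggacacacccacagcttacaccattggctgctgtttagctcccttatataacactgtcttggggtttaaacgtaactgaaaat
BST2 (chr19:17405621-17405780, minus strand): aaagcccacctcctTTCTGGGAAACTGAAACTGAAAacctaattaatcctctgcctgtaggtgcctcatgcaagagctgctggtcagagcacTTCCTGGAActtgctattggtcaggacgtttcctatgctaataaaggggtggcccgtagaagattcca

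An ISRE match was a common property of the list. RefSeq promoter windows, 250 bases before to 50 after a gene start, were found for 32 of the 40 members and not for IFIT2, USP18, OAS2, OASL, MX2, GBP2, IRF7 and TRIM22. Of these 32 genes 21 had an ISRE match in a window, 65.6%, against 4.38% of 27305 genes. Counted by window, since some genes have several starts, the shares were 58.1% of 43 and 3.57% of 35116. A GAS match was found for 9 of the 32, 28.1%, against 9.38% of all genes. The core of the HIF site, ACGTG or GCGTG on either strand, was found for 13, 40.6%, against 52.4% of all genes. A match says only that the letters are in the window, and binding was not measured.

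The 2 members with the largest positive differences had no ISRE match. SAMD9L had no match to the ISRE or GAS letters in its window. Only exact matches were searched, and its printed line holds aaaactgaaa, which differs from the ISRE letters in its first base only. IRF1 had a single GAS match, from position -124 to -116, and 2 HIF core matches, from -108 to -104 and from 30 to 34. In DTX3L an ISRE spans the start, and the same bases, chr3:122564332-122564341, are the ISRE found in a window of PARP9, which is transcribed the other way. The 20 measured members with an ISRE match had a median difference of -0.09 and ranged from -0.61 to 0.38. The 10 without one had a median of 0.15 and ranged from -0.47 to 0.84. Both arrays were above background in 9 of the 20 with an ISRE match and in 8 of the 10 without. Members with a GAS match had a median of 0.21 over 9 genes, against -0.09 over the 21 without. Those with a HIF core had -0.09 over 13 genes, against -0.06 over 17. Both arrays were above background in 7 of the 9 with a GAS match and in 10 of the 21 without. For the HIF core these counts were 9 of 13 and 8 of 17. The part of signal level in these medians was not tested.

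**Figure D3:**
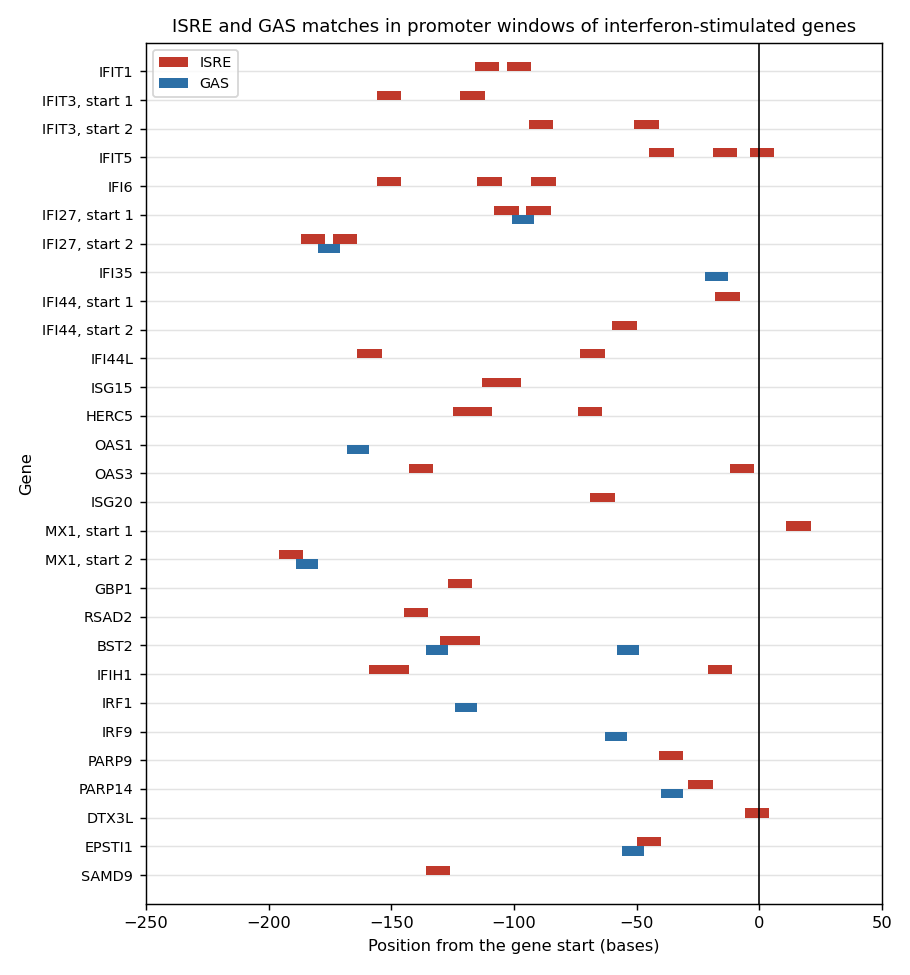
Positions of ISRE (red) and GAS (blue) matches, in bases from the gene start (vertical line), in the promoter windows of members that have a match. Each row is a window, numbered where a gene has several starts with a match; most matches lie before the start, and 1 of the 3 of IFIT5 and that of DTX3L span it.

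The 3 transcription factors of the list that were measured, IRF1, IRF7 and IRF9, were brighter in the HIF2A array. Of all 18377 genes 8986 had a positive difference, and 3 genes are too few to set against that share. IRF1, a factor induced by interferon gamma that activates many genes of the list, had a signal of 4.31 in HIF2A cells against 3.64 in control cells, a difference of 0.67 or 1.59-fold. Its vector control signal lay just above the olfactory receptor range. The 20 nearest genes past the filter on chromosome 5 had a median of 0.29, and with that subtracted its difference was 0.38, within 1.5-fold. With 32 added to both signals on the linear scale it was 0.22. IRF7, the factor that amplifies type I interferon genes, had 4.88 against 4.55. IRF9, the DNA-binding partner of the STAT dimer, had 4.46 against 4.18. Neither IRF7 nor IRF9 reached 1.5-fold, with differences of 0.33 and 0.28.

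SAMD9L and SAMD9 are neighbouring genes on chromosome 7 whose proteins restrain poxviruses and cell growth. SAMD9L had a signal of 7.19 in HIF2A cells against 6.35 in control cells, a difference of 0.84 or 1.79-fold and the largest of the list. SAMD9 had 4.85 against 4.47, a difference of 0.38. Both were therefore brighter in the HIF2A array, and both lie among genes that were mostly dimmer there. The medians over 20 neighbours were -0.17 around SAMD9L and -0.27 around SAMD9, with 7 of 20 higher for each. After subtracting them the differences came to 1.01 and 0.65 (log2).

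DTX3L, a ubiquitin ligase that works as a complex with the ADP-ribosyltransferase-like PARP9, had the largest negative difference. Its signal was 3.55 in HIF2A cells, just within the olfactory receptor range, against 4.16 in control cells, a difference of -0.61 or 1.53-fold on the deposited values. Against the olfactory receptor level it was at least 1.49-fold lower, a bound within 1.5-fold, and with 32 added on the linear scale the difference was -0.19. PARP9, which faces DTX3L across the shared start region, had 2.78 against 2.63, both within background. PARP14, a further ADP-ribosyltransferase on the same chromosome, had 4.04 against 4.42, a difference of -0.38. Of these 3 genes only PARP14 was above background in both arrays.

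The IFIT family, whose proteins bind viral RNA, was within background throughout. IFIT1 had 2.62 in HIF2A cells against 2.68 in control cells, IFIT2 2.51 against 2.82, and IFIT3 2.84 against 3.2. IFIT5 had 3.50 against 3.15. No fold is drawn from these 4, since neither array lay above the olfactory receptor range, although the promoters of IFIT1, IFIT3 and IFIT5 have ISRE matches.

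The IFI genes divided into bright and dim members. IFI6, a membrane protein gene known to limit flavivirus replication, had 5.31 in HIF2A cells against 5.48 in control cells, and IFI35, which encodes a partner of NMI, had 6.23 against 6.0. IFI27, which encodes a small mitochondrial protein, had 3.79 against 4.32, a difference of -0.53 that stayed within 1.5-fold. IFI44 and IFI44L, neighbours on chromosome 1, were within background in both arrays, at 2.56 against 2.42 and 2.78 against 2.86.

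ISG15 and the enzymes that attach or remove it had 4 negative differences of 4, all small, where 9108 of all 18377 genes had a negative difference. ISG15, the ubiquitin-like protein at the centre of this system, had 3.88 in HIF2A cells against 3.99 in control cells. HERC5, its main ligase in human cells, had 3.74 against 3.83. USP18, which removes ISG15 and restrains signalling at IFNAR2, had 3.45 against 3.82, or at least 1.18-fold lower since the HIF2A signal is in the background range. HERC6, the ligase that serves ISG15 in mouse, had 2.72 against 2.93, both within background. Beyond the list, the activating enzyme gene UBA7 had 3.02 against 3.28, both within background. The conjugating enzyme gene UBE2L6 had 6.24 against 6.26, and TRIM25, a ligase of the RIG-I pathway, 7.16 against 7.05.

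The oligoadenylate synthetases sense double-stranded RNA and activate an RNA-degrading enzyme. OAS1 had 3.79 in HIF2A cells against 4.22 in control cells, a difference of -0.43, and its neighbours OAS3 and OAS2 had 3.32 against 3.47 and 3.36 against 3.15. OASL, a relative that acts on RIG-I, had 3.32 in both. OAS1 alone of these 4 was above background in both arrays. ISG20, an RNA exonuclease gene, had 5.81 against 5.90.

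Among the other effectors, MX1 and MX2 encode dynamin-like GTPases that trap viral particles. MX1 had 3.64 in HIF2A cells against 3.43 in control cells, at least 1.04-fold higher. MX2 had 2.98 against 3.21, both within background. GBP2, a guanylate-binding protein gene, had 2.71 against 3.0 on its brighter probe set and 2.73 against 2.55 on the other, so its probe sets differ in sign and all 4 signals are within background. It is the only member with more than 1 probe set of its own.

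RSAD2 and CMPK2 lie head to head on chromosome 2 and encode viperin, which makes a nucleotide analog that stops viral polymerases, and a nucleotide kinase. RSAD2 was within background at 2.99 in HIF2A cells against 3.10 in control cells, while CMPK2 was above it at 4.59 against 4.25. BST2, the tetherin gene, whose product holds budding virions at the cell surface and is also a myeloma surface antigen, had 6.15 against 5.94. The differences of CMPK2 and BST2 were 0.34 and 0.21.

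Of the RNA sensors, RIGI had 2.51 in HIF2A cells against 2.92 in control cells, both within background. IFIH1, the MDA5 gene, had 3.77 against 3.61, just above it. XAF1, which encodes a partner of the apoptosis inhibitor XIAP, had 4.24 against 4.71, a difference of -0.47. The nuclear body gene SP100 had 4.12 against 4.05. EPSTI1 and the ubiquitin ligase gene TRIM22 were within background in both arrays, at 2.84 against 3.21 and 2.95 against 2.58. None of these 6 genes reached 1.5-fold.

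The upstream arm of the pathway was measured on further lists, chosen by role. Genes of the interferon receptors were above background in both arrays, and 0 of 6 were past 1.5-fold, where 5.67% of genes past the filter were higher and 4.76% lower. IFNAR1 had 6.94 in HIF2A cells against 7.01 in control cells and IFNAR2 6.06 against 5.72. The interferon gamma receptor genes IFNGR1 and IFNGR2 had 5.28 against 5.57 and 6.79 against 6.76. The lambda receptor genes IFNLR1 and IL10RB had 4.61 against 4.77 and 6.72 against 7.10. The median over the 6 was -0.12.

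All 3 kinase genes measured were brighter in HIF2A cells, where 8986 of all 18377 genes had a positive difference. JAK1 had 6.41 against 5.66 in control cells, a difference of 0.75 or 1.68-fold, and its 20 neighbours on chromosome 1 had a median of 0.35. TYK2 had 6.75 against 6.37 and JAK2, which serves the gamma receptor, 3.77 against 3.50, the latter within background. STAT3 had 6.28 against 6.10. JAK1 was the 1 gene past 1.5-fold of the 4 measured, too few to set against the share over all genes.

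Genes that damp the pathway had a median of 0.07 over 9. IRF2, a repressor that competes for ISRE-like sites, had 6.60 in HIF2A cells against 7.30 in control cells, a difference of -0.70 or 1.62-fold, among neighbours with a median of -0.40. SOCS1 was positive at 0.48, PTPN6 at 0.21 and PTPN2 at 0.13, while SOCS3 had -0.23 and PTPN1 -0.16. SOCS1, at 4.31 in HIF2A cells against 3.83 in control cells, and PTPN6, at 4.07 against 3.86, reached the filter in the HIF2A array alone. These 2 genes thus entered through the array in which they were higher. IRF2 was the 1 gene of the 9 at least 1.5-fold lower, against 4.76% of genes past the filter.

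Sensors and adaptors had a median of 0.07 over 19 genes, with 11 positive and 8 negative. Over the 13 past the filter it was 0.36, with 10 positive and 3 negative. Of all 11469 genes past it, 6035 were positive and 5291 negative, with a median of 0.03. TRAF3, at 4.44 in HIF2A cells against 3.97 in control cells, and DHX58, at 4.17 against 3.81, reached the filter in the HIF2A array alone. Both thus entered through the array in which they were higher. STING1, the adaptor of cytosolic DNA sensing, had 5.50 in HIF2A cells against 4.62 in control cells, a difference of 0.88 or 1.84-fold. CGAS, the enzyme that activates it, had 6.77 against 7.31, a difference of -0.54. The 20 neighbours of STING1 on chromosome 5 had a median of 0.48, and those of CGAS had 0.07. The RIG-I adaptor gene MAVS differed by 0.56, TRAF3 and IKBKE both by 0.47, TBK1 by -0.34 and MYD88 by -0.07. STING1 alone of the 19 was past 1.5-fold, a count near the 3.81% of all genes that were higher by that much.

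**Figure D4:**
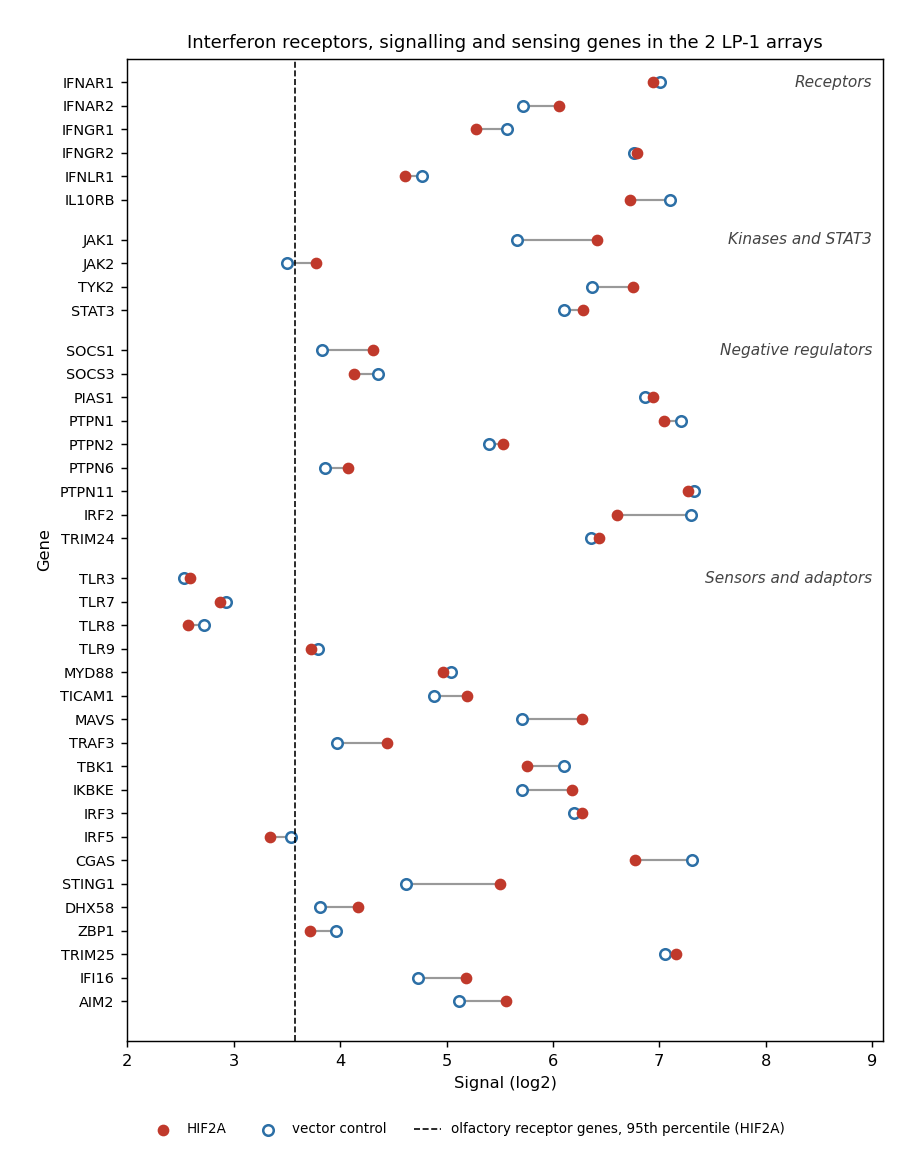
Log2 signal of interferon receptor, kinase, regulator and sensor genes in the HIF2A array (filled red) and the vector control array (open blue), 1 array each, with the olfactory receptor 95th percentile dashed. JAK1 and STING1 are brighter in the HIF2A array by 0.75 and 0.88, IRF2 is dimmer by a difference of -0.70, and all 6 receptor genes lie right of the dashed line.

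Interferon genes themselves were mostly dark. Of 16 measured, 13 were within background in both arrays, IFNB1 among them at 2.72 in HIF2A cells against 2.67 in control cells. IFNL3 had 5.87 against 5.07, a difference of 0.80 or 1.74-fold, whereas its close copy IFNL2 had 3.78 against 3.87. The sharing of signal between these copies was not tested. IFNL1, a further lambda gene, had 3.99 in HIF2A cells against 3.57 in control cells, the latter within background. IFNL3 was the 1 ligand past the filter. It was also the 1 of 16 at least 1.5-fold higher, against 3.81% of all genes, and 0 were lower by that much, against 3.37%.

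Of 46 further interferon-stimulated genes measured, 19 were positive and 26 negative, with a median of -0.075. At least 1.5-fold higher were 2, the surface protein gene LY6E at 0.71 and the antiviral RNA-binding protein gene ZC3HAV1 at 0.62, and at least 1.5-fold lower were 0, near the 3.81% and 3.37% over all genes. ZNFX1 followed at 0.49. The largest negative differences past the filter were -0.50 for EIF2AK2, the kinase PKR, -0.48 for PARP12 and -0.39 for APOBEC3G. CXCL10, an interferon-induced chemokine gene picked after its values were seen, had 7.99 in HIF2A cells against 8.01 in control cells. Within these 46 the median was 0.22 over the 23 past the filter, against 0.03 over all genes past it. TRIM14, at 4.05 in HIF2A cells against 3.61 in control cells, entered these 23 through the HIF2A array alone. Here too the sign of the median turned with the filter.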

How the data were processed

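RNA of 2 LP-1 lines, HIF2A and vector control, was measured on 1 array each. The deposited values are log2 signals of 28869 probe sets. Per the submitters' processing notes, they come from Affymetrix Expression Console, with version, algorithm and scaling not given in the sources used here. Base 2 was inferred because the maximum, 13.97, is above 11.09, which a natural log of 16-bit scanner readings cannot pass. Array medians were 4.00 in HIF2A and 4.02 in the vector control.

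Of 19310 probe sets with a single symbol, 19279 were matched by Entrez number to RefSeq, and 1752 with several symbols were left out. Neighbours are the 20 nearest genes past the filter in RefSeq order. Folds are given as bounds where the dimmer array was within the olfactory receptor range. Sequences are RefSeq's, on GRCh38.p14. Members and lists were chosen with earlier results of these data known. All members, all receptor, kinase and ISG15 enzyme genes, and of each other list up to 3 genes per direction past the filter may be named, with ties. IFNB1, IFNL1, IFNL2, DHX58, TRIM14 and CXCL10 were named outside this rule. The alternatives comprised scalings, an offset, filters, probe sets, a floor and neighbours. The code recovered 200 of 200 planted differences and 200 of 200 planted motifs. Computing used Python 3.11.15 with pandas 2.3.3, numpy 2.4.6, statsmodels 0.14.6 (loess) and scipy 1.17.1, and figures matplotlib 3.10.9.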

Additional observations from a re-analysis of the deposited data

How the results depend on the processing

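No paired analysis was possible because each group has 1 array, and no array could be left out. Of 494 values of the 38 genes under 13 alternatives, 9 shifted by 0.34 or more, which is the robust SD over genes past the filter, and 7 turned their sign, all in genes within background. Of these 7, 5 came from the floor, where the value of -0.001 is the difference between the floors of the 2 arrays and carries no direction. SAMD9L ranged from 0.65 to 1.01, IRF1 from 0.22 to 0.70, DTX3L from -0.66 to -0.19 and IFI27 from -0.53 to -0.18. With neighbours subtracted, 1 gene, SAMD9L, was at least 2-fold higher. With 32 added on the linear scale, 1 gene was at least 1.5-fold higher and 0 lower, and the median over all members was -0.019. The count at least 1.5-fold higher was 1 with the 75th percentile filter and with the filter on the mean of the arrays. The count at least 1.5-fold lower was 0 under these filters, quantile normalization, loess centring and the olfactory receptor floor, and with both arrays required above that level, a filter chosen after seeing the data. The floor gave a median of -0.001 over all members, again that difference. The median past the filter was -0.085 without a filter, -0.09 with the 25th percentile filter, 0.22 with the 75th percentile filter, 0.21 with the filter on the mean and 0.066 with 32 added. Over the 12 members that reach the filter in both arrays it was 0.22, with 8 positive and 4 negative. The number of arrays limits every value, and a signal within background limits the 17 genes that had it in both arrays.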

Other observations

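Probe sets shared with other genes were left out of the values above. The one annotated to GBP1, GBP3 and a GBP1 pseudogene had a log2 signal of 3.09 in HIF2A cells against 2.96 in control cells, within the background range. The one shared by USP18 and its pseudogene had 3.25 against 3.23. The one shared by SP100, CTCFL and HMGB1 had 9.07 against 9.68, and which of the 3 genes it reports was not tested.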
